A study of Mus musculus with 24 samples.

Results

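The miR-130/301 family is a group of mammalian microRNAs that share 1 seed, the bases near the 5′ end with which a microRNA pairs to its target messenger RNAs. Its members were taken by name from the deposited counts: mmu-miR-130a-3p, mmu-miR-130b-3p, mmu-miR-301a-3p and mmu-miR-301b-3p of the seed family, and mmu-miR-130a-5p, the opposite arm of the miR-130a hairpin (mmu, for mouse, is left out from here on). These are 5 of 1221 mature miRNA names, and 51 of 7128 isoform entries. The names were chosen with their change over the chase already known. Their levels and isoform shares over the chase are therefore only described, and nothing is read from tests of them.

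A microRNA is cut from a hairpin as a duplex of a 5p and a 3p arm, of which mostly one is kept in an Argonaute protein while the other, the passenger, is degraded. Kept strands are long-lived as a rule, and their 3′ ends are often shortened or extended by untemplated A or U. The miR-130/301 family is known as a repressor of PPARγ in the adipocyte lineage and as a regulator of matrix stiffness and vascular remodelling in fibroblast-like and vascular cells.

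The data were small RNA libraries of 3T9, a mouse embryo fibroblast line that has been immortalised, grown in DMEM with 10% serum. In 21 libraries, cells had received 300 µM 4-thiouridine (4SU), a uridine analogue that enters newly made RNA, for 3 h and then 1 mM uridine as a chase of 0, 2, 4, 6, 8, 10 or 12 h, and RNA carrying 4SU was biotinylated and purified on streptavidin beads. Each chase time was sequenced in 3 experiments, 1 library apiece, and the series design describes these as independent biological replicas. There were 3 control libraries, 1 of each kind: total RNA of 4SU-pulsed cells, the negative extraction (the same purification carried out on cells that had received no 4SU), and total RNA of unlabelled cells. The titles and the series design describe these cells as unlabelled, although 1 treatment text naming 4SU is repeated for all samples. No spike-in is recorded, so each level is a share of the library's miRNA counts, given in CPM, counts scaled to equal library totals. A change over the chase is therefore relative to the other purified miRNAs and is no half-life.

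The mature sequences below are those of RefSeq (GRCm38.p6), with bases 2 to 8, the seed, in capitals; 4 of the 5 members had an entry. They are shown because the family is defined by this seed and because 2 members differ so little in sequence.
miR-130a-3p: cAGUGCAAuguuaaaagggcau
miR-130b-3p: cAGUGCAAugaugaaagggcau
miR-301a-3p: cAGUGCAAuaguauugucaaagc
miR-130a-5p: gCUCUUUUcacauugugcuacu
The 3p sequences share the seed AGUGCAA, which 7 RefSeq mouse miRNAs carry. Of these, 3 are in the counts table under the same name, and miR-130c and miR-721 are not in it. miR-130a-3p and miR-130b-3p are identical at 20 of 22 positions, counted from 1 at the 5′ end, and differ by the substitutions U11A and A13G. miR-301a-3p has the first 9 bases in common with miR-130a-3p and differs at 10 of the 22 positions compared. How the authors divided reads that match more than one name is not given, so reads of shortened miR-130a-3p and miR-130b-3p forms are told apart by positions 11 and 13 alone. 4SU can enter at uridines only: miR-130a-3p has 5, miR-130b-3p 4, miR-301a-3p 6 and miR-130a-5p 10, against a median of 6 (0 to 12) over the 346 of 414 tested miRNAs that matched a RefSeq sequence.

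The hairpins of 3 of the 4 genes follow, with the 5p arm (first) and the 3p arm in capitals, because both arms of each were counted.
Mir130a: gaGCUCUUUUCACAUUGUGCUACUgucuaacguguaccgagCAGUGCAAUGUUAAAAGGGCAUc
Mir130b: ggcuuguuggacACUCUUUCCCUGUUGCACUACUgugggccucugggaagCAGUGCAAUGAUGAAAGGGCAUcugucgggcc
Mir301: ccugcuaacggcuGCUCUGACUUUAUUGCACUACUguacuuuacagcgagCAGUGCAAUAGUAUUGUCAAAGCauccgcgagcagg
Mir130a lies at chr2:84741115-84741178 on the minus strand (GRCm38.p6) and overlaps no other gene of the GENCODE vM21 annotation. Mir130b (chr16:17124061-17124142) and Mir301b (chr16:17124400-17124496) lie 257 bases apart on the minus strand, both in introns of 2610318N02Rik (chr16:17113398-17125167). Mir301, the gene of miR-301a, lies at chr11:87113004-87113089 on the plus strand in an intron of Ska2 (chr11:87109234-87124635), which encodes a spindle and kinetochore protein.

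Library totals were 1133048 to 7886484 counts in the purified libraries, 4525638 in total 4SU RNA, 283922 in the negative extraction and 6412428 in total unlabelled RNA. They were 1133048 to 3281631 at 12 h and 3019171 to 7733333 at 0 h. A level of 3 counts stood for 0.38 to 2.65 CPM in the purified libraries and for 10.6 CPM in the negative extraction. All 7 fibroblast and mesenchymal marker miRNAs were present, at a summed 140078 to 267110 CPM in the purified libraries. Marker lists of other cell types summed there to 201 to 1151 CPM (epithelial, 6 of 6 names in the table, mainly miR-205-5p) and 185 to 734 CPM (blood, 5 of 5). Muscle markers summed to 1.77 to 22.1 CPM (3 of 3, 1 of them at 0 in every purified library). Neural markers summed to 0.883 to 8.54 CPM (1 of 2) and embryonic stem cell markers to 0 to 0.692 CPM (2 of 5). In total 4SU RNA, the negative extraction and total unlabelled RNA the fibroblast sums were 384765, 146590 and 439317 CPM. In the same order the epithelial sums were 33.1, 740 and 186 CPM, and the blood sums 237, 324 and 221 CPM. A second header line of the table holds codes, 1 for each library, whose meaning no label gives. The code is common to experiment 1 and the negative extraction, differs in experiment 2 and again in experiment 3, and takes a value of its own in the pair of total RNA libraries. Purified and total RNA libraries never share it, and neither do libraries of different experiments, so what it stands for cannot be told apart from either comparison.

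The order of the members differed between total and purified RNA. In total 4SU RNA miR-301a-3p stood highest at 3036 CPM, followed by miR-130a-3p at 2528, miR-130b-3p at 1621, miR-301b-3p at 138 and miR-130a-5p at 4.20 CPM. In total unlabelled RNA miR-301a-3p (1676 CPM, exact 95% Poisson interval 1644 to 1708) and miR-130a-3p (1662 CPM, 1631 to 1694) could not be separated by counting error, which is all that these intervals cover. miR-130b-3p followed at 1099 CPM, miR-301b-3p at 106 and miR-130a-5p at 3.59 CPM. In the purified libraries miR-130a-3p was the most abundant member, with 816 to 1602 CPM over 21 libraries, and miR-130b-3p came next with 406 to 852 CPM. miR-301a-3p ranged over 23.2 to 355 CPM, miR-301b-3p over 6.94 to 42.2 CPM, and miR-130a-5p over 0 to 5.96 CPM. The ranges of miR-130a-3p and miR-130b-3p overlapped, as did those of miR-301a-3p and miR-301b-3p, yet the order of the 5 was the same within each of the 21 libraries. These are levels of mature species of similar length (22 or 23 bases for the 4 with a sequence), with no correction for length.

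**Figure D1:**
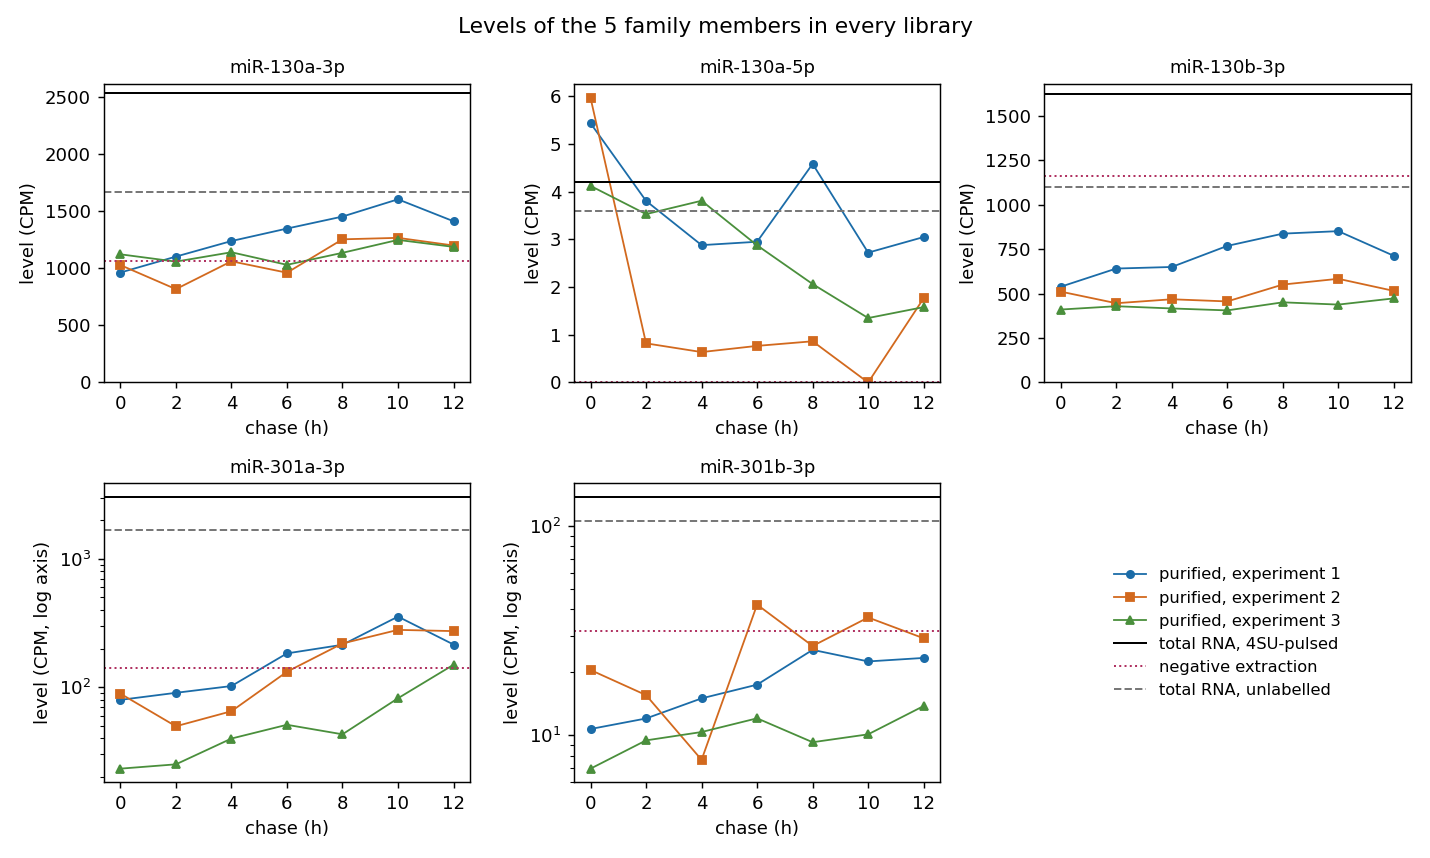
Level of each member in CPM against hours of chase, with 1 line per experiment of the purified series and a horizontal line for each control library; the panels of miR-301a-3p and miR-301b-3p have log axes. Every purified library lies under both total RNA lines for miR-301a-3p, whose highest purified level was 355 CPM against 3036 and 1676 CPM in the total RNA libraries.

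miR-301a-3p had the greatest ratio of 12 h to 0 h among the members, though not the greatest difference in CPM, which was that of miR-130a-3p. It had 79.7, 90.4, 102, 183, 214, 355 and 215 CPM at 0, 2, 4, 6, 8, 10 and 12 h in experiment 1. In experiment 2 the levels were 89.1, 49.6, 65.0, 132, 219, 280 and 274 CPM, and in experiment 3 they were 23.2, 25.1, 39.8, 51.0, 43.0, 82.0 and 150 CPM. In each experiment every library from 6 h on stood above the 4 h library, and in experiments 1 and 2 the highest level came at 10 h. The mean was 213 ± 62.0 CPM at 12 h and 64.0 ± 35.6 CPM at 0 h (SD, n = 3 each). The ratio of 12 h to 0 h was 2.70, 3.07 and 6.45 in experiments 1 to 3. At 12 h these levels rested on 706, 310 and 379 counts, and at 0 h on 616, 269 and 107. The negative extraction, with 40 counts, held 141 CPM of this miRNA (Poisson interval 101 to 192). All 3 libraries at 0 h were under that level, and all 3 at 12 h were above it, the one of experiment 3 (150 CPM) within its interval. The part of carried-over RNA in these levels was not tested.

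miR-301b-3p, whose gene neighbours Mir130b, was scarce. It had 23.5, 29.1 and 13.8 CPM at 12 h in experiments 1 to 3, against 10.7, 20.5 and 6.94 CPM at 0 h. The level was higher at 12 h in each experiment, by 2.19, 1.42 and 1.99 times, although the 12 h library of experiment 3 lay under the 0 h library of experiment 2. The smallest count was 12, at 4 h in experiment 2, and the negative extraction held 9 counts (31.7 CPM, Poisson interval 14.5 to 60.2). As a percentage of its neighbour miR-130b-3p it stood at 3.29, 5.65 and 2.92% at 12 h and at 1.99, 4.02 and 1.69% at 0 h, against 8.51% in total 4SU RNA, 2.73% in the negative extraction (9 against 330 counts) and 9.68% in total unlabelled RNA. Over all purified libraries this percentage ran from 1.63% (4 h, experiment 2) to 9.24% (6 h, experiment 2). Both the negative extraction and total 4SU RNA lay within that range.

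miR-130a-3p and miR-130b-3p, whose sequences differ at 2 positions, changed little by comparison. miR-130a-3p had 1410, 1198 and 1186 CPM at 12 h, against 961, 1027 and 1121 CPM at 0 h, in experiments 1 to 3. miR-130b-3p had 713, 515 and 473 CPM at 12 h and 539, 511 and 411 CPM at 0 h. The ratios of 12 h to 0 h were 1.47, 1.17 and 1.06 for miR-130a-3p. For miR-130b-3p, whose levels at 12 h and 0 h overlapped, they were 1.32, 1.01 and 1.15. In experiment 1 both reached their highest level at 10 h, at 1602 and 852 CPM. Measured within the family, miR-301a-3p made up 10.3 ± 2.87% of the counts of the 5 members at 12 h and 3.95 ± 2.15% at 0 h (SD, n = 3 each). miR-130a-3p made up 61.3 ± 3.18% at 12 h and 64.6 ± 6.10% at 0 h, and miR-130b-3p 27.2 ± 2.55% at 12 h and 30.3 ± 3.81% at 0 h. Set against miR-130a-3p alone, miR-301a-3p had 15.3, 22.8 and 12.6% of its counts at 12 h and 8.29, 8.68 and 2.07% at 0 h, against 120% in total 4SU RNA, 13.3% in the negative extraction (40 against 301 counts) and 101% in total unlabelled RNA. The negative extraction thus lay among the 12 h libraries in this ratio.

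miR-130a-5p, the passenger arm by its level, was the one member that was lower at 12 h. It had 3.05, 1.77 and 1.58 CPM at 12 h and 5.43, 5.96 and 4.12 CPM at 0 h. These levels rested on 10, 2 and 4 counts at 12 h and on 42, 18 and 19 counts at 0 h, so single values are imprecise. In experiment 2 the decline lay between 0 and 2 h, after which no library held more than 2 counts, and 0 counts at 10 h allow up to 1.72 CPM. The negative extraction held 0 counts, which allows up to 10.6 CPM and so tells nothing about background at these levels.

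Slopes over all 21 libraries, in log2 units per hour from edgeR with TMM scaling and no term for the experiment, gave the same order. Each SE was the size of the slope divided by the square root of edgeR's F statistic. With the experiment as a block the SE was smaller, at 0.0176 for miR-301a-3p and 0.00771 for miR-130b-3p. The slope was 0.21 for miR-301a-3p (SE 0.0402), which ranked 2 from the top of 414 tested miRNAs, and 0.11 for miR-301b-3p (SE 0.0361), ranked 10. It was 0.054 for miR-130a-3p (SE 0.00998), 0.046 for miR-130b-3p (SE 0.0159) and -0.085 for miR-130a-5p (SE 0.0414). All 5 passed the filter on low counts, and the median slope of all 414 miRNAs was -0.0037. Slopes within single experiments were instead least-squares fits to log2 CPM (TMM, prior count of 2). Within experiments 1, 2 and 3 the slope of miR-301a-3p was 0.18, 0.22 and 0.23, and that of miR-301b-3p 0.12, 0.12 and 0.073. Each member had 1 sign in all 3 experiments. At an adjusted p of 0.05, 2 of the 5 members were called, both rising (miR-130a-3p and miR-301a-3p), where 5.07% of all tested miRNAs were called rising and 7.25% falling. With the experiment as a block all 5 were called, 4 of them rising, where 15.2% were called rising and 16.7% falling (31.9% in all). Since the members were chosen on this contrast, nothing is read from these counts.

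**Figure D2:**
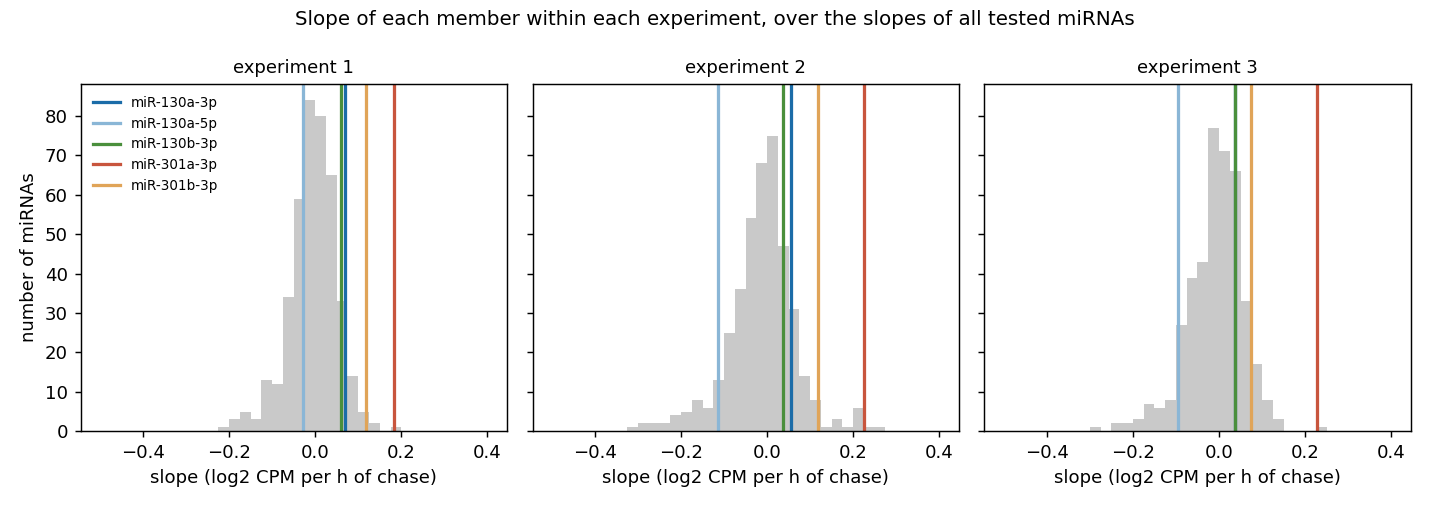
Histogram of the least-squares chase slopes of 414 tested miRNAs within each experiment, with the 5 members as coloured lines. The x axis gives log2 CPM per hour and the y axis the number of miRNAs. miR-301a-3p lies in the right tail in all 3 experiments, at 0.18, 0.22 and 0.23, and miR-130a-5p left of 0 in all 3.

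Scaling bears on the smaller slopes. With library totals in place of TMM the median of all tested miRNAs moved to -0.0231 per hour, or -0.28 over 12 h, and the slopes of miR-130a-3p and miR-130b-3p were 0.035 and 0.028. Over the 36 alternatives run, slopes ranged over 0.19 to 0.24 for miR-301a-3p and 0.090 to 0.13 for miR-301b-3p. The ranges were 0.035 to 0.064 for miR-130a-3p, 0.028 to 0.057 for miR-130b-3p and -0.16 to -0.039 for miR-130a-5p. No member's slope changed sign. Of these alternatives, 21 only left out single libraries of the same data. The members were also chosen with their change over the chase already known. Nothing is therefore read from the unchanged signs.

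The other arms of these hairpins are not members but were counted beside them. They were named with earlier results of these data known, so nothing is read from the adjusted p of their slopes. miR-301a-5p, the passenger of miR-301a-3p, moved the opposite way: it averaged 12.6 ± 2.23 CPM at 12 h and 34.0 ± 9.36 CPM at 0 h (SD, n = 3 each), and its slope was -0.087 log2 per hour (edgeR quasi-likelihood test, Benjamini-Hochberg adjusted p = 0.00652). Counts of miR-301a-5p were 5.67, 3.87 and 10.0% of those of miR-301a-3p at 12 h, and 55.4, 36.4 and 110% at 0 h, in experiments 1 to 3. The same ratio was 0.939% in total 4SU RNA, 12.5% in the negative extraction (5 against 40 counts) and 1.85% in total unlabelled RNA. At 0 h the arms of miR-301a were thus nearer to each other in purified RNA than in total RNA, where the 3p arm exceeded the 5p arm by 107 times (4SU-pulsed) and 54.0 times (unlabelled).

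In the miR-130b hairpin both arms were abundant. miR-130b-5p had 61.3, 86.1 and 86.2% of the counts of miR-130b-3p at 12 h and 94.4, 95.5 and 76.6% at 0 h, against 24.2% in total 4SU RNA, 33.0% in the negative extraction and 28.7% in total unlabelled RNA. Its level was 430 ± 18.9 CPM at 12 h and 437 ± 107 CPM at 0 h (SD, n = 3 each), and its slope of 0.025 did not pass in edgeR (adjusted p = 0.256) but did with the experiment as a block (adjusted p = 0.026). miR-130a was one-sided throughout. Its 5p arm had 0.216, 0.147 and 0.133% of the counts of the 3p arm at 12 h and 0.565, 0.581 and 0.367% at 0 h, against 0.166% in total 4SU RNA and 0.216% in total unlabelled RNA. miR-301b-5p had at most 25 counts in any purified library and did not pass the filter.

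Purified RNA was then set against total RNA of pulsed cells, as log2 ratios of CPM + 1 without a test because there was 1 total library. miR-301a-3p stood at -3.87 ± 0.436 at 12 h and -5.76 ± 1.05 at 0 h (SD over 3 purified libraries). At 0 h it was 54.2 times lower in purified than in total 4SU RNA, rank 2 from the bottom of 414 miRNAs, and at 12 h it was 14.6 times lower, rank 8. miR-301b-3p had -2.65 ± 0.526 at 12 h and -3.46 ± 0.726 at 0 h, and miR-130b-3p -1.54 ± 0.311 and -1.74 ± 0.208, in the same order of times. miR-130a-3p was 2.01 times lower in purified than in total 4SU RNA at 12 h and 2.44 times lower at 0 h. Its single libraries at 12 h had log2 ratios of -1.09 to -0.842, so not each was past 2-fold. On average the 4 members with the family seed were each over 2-fold lower in the purified RNA at both times. Of all tested miRNAs 32.4% were so at 12 h and 22.9% at 0 h (over 2-fold higher were 9.18% at 12 h and 15.2% at 0 h). miR-130a-5p was not, at -0.76 ± 0.350 at 12 h and 0.23 ± 0.230 at 0 h, and neither was miR-130b-5p, at 0.13 ± 0.0642 and 0.12 ± 0.384. miR-301a-5p had -1.13 ± 0.234 at 12 h and 0.21 ± 0.382 at 0 h. The members were chosen with earlier results of these data known. Nothing is therefore read from how many were past 2-fold, here or in the comparisons below.

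**Figure D3:**
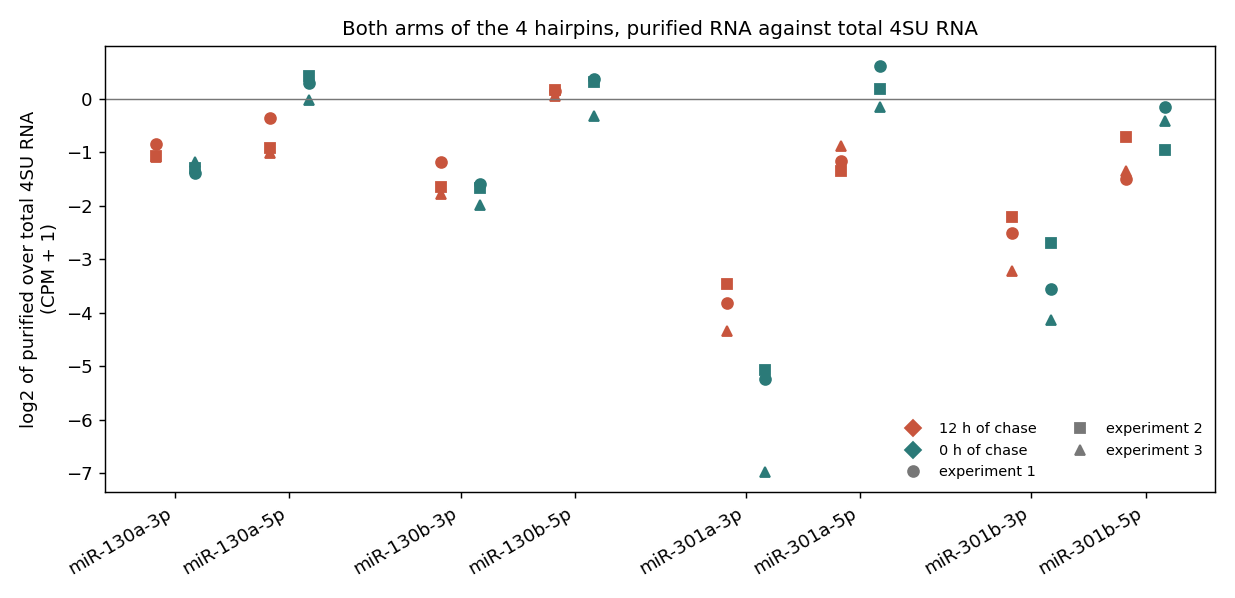
Log2 ratio of purified over total 4SU RNA (CPM + 1) for the 3p and 5p arms of the 4 hairpins, with 1 point per experiment at 12 h (left) and 0 h (right) of chase. All 3p points lie below 0, lowest for miR-301a-3p (-5.76 on average at 0 h), whereas the 5p arms of miR-130a, miR-130b and miR-301a average 0.23, 0.12 and 0.21 at 0 h and that of miR-301b averages -0.51.

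The ratio to total RNA depends on scaling for the members nearest to 2-fold. The median ratio of all tested miRNAs was -0.43 at 12 h and -0.024 at 0 h, and with TMM over all 24 libraries it was -0.045 and 0.14. With that scaling miR-130a-3p stood at -0.58 at 12 h and so was under 2-fold, and at -1.11 at 0 h, and miR-130b-3p at -1.12 at 12 h. Within total RNA, 4SU-pulsed over unlabelled cells gave log2 ratios of 0.86 for miR-301a-3p, 0.60 for miR-130a-3p, 0.56 for miR-130b-3p, 0.37 for miR-301b-3p and 0.18 for miR-130a-5p, against a median of 0.31 over all tested miRNAs. With TMM over all 24 libraries the median was 0.060 and the ratios were 0.59, 0.34, 0.29, 0.11 and -0.030, so that of miR-130a-5p changed sign. No ratio was past 2-fold, where 10.1% of all tested miRNAs were higher and 5.56% lower by that much, and each came from 1 library on either side. For miR-130a-5p the counts were 19 in 4SU-pulsed and 23 in unlabelled RNA, and the Poisson intervals overlapped.

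The negative extraction holds RNA that came through the purification without 4SU, and it already differed from total RNA in the members. Relative to total unlabelled RNA, miR-301a-3p had a log2 ratio of -3.56 (141 against 1676 CPM), miR-301b-3p -1.72, miR-130a-3p -0.65 and miR-130b-3p 0.081, against a median of -0.39. The first 2 were over 2-fold lower, as were 34.1% of all tested miRNAs. Purified RNA set against the negative extraction gave 0.55 ± 0.436 at 12 h and -1.34 ± 1.05 at 0 h for miR-301a-3p. For miR-301b-3p it gave -0.56 ± 0.526 at 12 h and -1.37 ± 0.726 at 0 h, for miR-130b-3p -1.06 ± 0.311 and -1.26 ± 0.208, and for miR-130a-3p 0.25 ± 0.140 and -0.035 ± 0.111. No member with the family seed was thus more than 2-fold above the negative extraction at either time, where 25.1% of all tested miRNAs were so at 12 h and 33.1% at 0 h. On average miR-130b-3p was more than 2-fold below it at 12 h, as were 18.6% of all tested miRNAs. At 0 h miR-130b-3p, miR-301a-3p and miR-301b-3p were so on average, as were 12.8% of all tested miRNAs. Not each library was: they ran from -1.29 to -0.705 for miR-130b-3p at 12 h. At 0 h they ran from -2.55 to -0.655 for miR-301a-3p and from -2.04 to -0.603 for miR-301b-3p. For miR-301b-3p the negative extraction held only 9 counts (Poisson interval 14.5 to 60.2 CPM, against a mean of 12.7 CPM at 0 h). How much of the members' counts in the purified libraries is RNA carried over without label was not tested.

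Levels of the members were also compared between experiments, averaged over the chase times. Equal levels in the 3 experiments were tested with edgeR's quasi-likelihood F test, with the chase time as a factor. Of the 5 members 3 were called (adjusted p under 0.05), where 69.1% of all 414 miRNAs were. miR-301a-3p averaged 59.1 ± 44.5 CPM in experiment 3, 158 ± 98.1 CPM in experiment 2 and 177 ± 97.6 CPM in experiment 1 (SD, n = 7 chase times each), a log2 difference of -1.56 between experiments 3 and 1 (SE 0.162, edgeR adjusted p = 8.8e-09 over the 3 experiments). It was lower in experiment 3 than in experiment 1 at each of the 7 times. miR-130b-3p averaged 432 ± 24.2 CPM in experiment 3, 505 ± 51.0 in experiment 2 and 714 ± 113 in experiment 1, and the log2 difference between experiments 3 and 1 was -0.60 (SE 0.0771, edgeR adjusted p = 9.02e-07).

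miR-301b-3p also differed (edgeR adjusted p = 4.43e-05), at 10.3 ± 2.18 CPM in experiment 3, 25.5 ± 12.0 in experiment 2 and 18.1 ± 5.87 in experiment 1. Here the contrast was greatest between experiments 3 and 2, at a log2 difference of -1.31 (SE 0.218). For miR-130a-3p no difference passed the test (adjusted p = 0.472), with 1130 ± 73.7 CPM in experiment 3, 1083 ± 166 in experiment 2 and 1301 ± 218 in experiment 1, but with library totals in place of TMM it did (adjusted p = 0.0175). miR-130a-5p did not pass either (adjusted p = 0.0745), and passed under 6 alternatives, such as when the 0 h library of experiment 2 was left out (adjusted p = 0.00342). The calls of miR-130b-3p, miR-301a-3p and miR-301b-3p held in all 30 alternatives.

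The deposited table also divides each miRNA into isoform classes. They are here called canonical, trimmed, extended at the 3′ end by templated bases, and extended at the 3′ end by non-templated bases. Non-templated bases are added A, U, G or C, or a mixture. The class names are the authors', and their exact definitions are not given. The 3 abundant members had 3 different compositions. miR-130a-3p was mostly trimmed, at 80.7 to 93.5% of its counts in the purified libraries. miR-301a-3p was mostly canonical, at 63.0 to 92.3%. miR-130b-3p was split between trimmed forms (35.2 to 60.3%), forms with a non-templated addition (27.3 to 43.9%) and canonical forms (10.4 to 21.5%).

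For miR-130a-3p and miR-130b-3p this composition was far from that of total RNA. Trimmed forms of miR-130a-3p made up 86.9 ± 5.95% at 0 h of chase (SD, n = 3), against 45.9% in total 4SU RNA (95% Wilson interval 44.9 to 46.8), the greatest difference among 156 miRNAs with at least 50 counts in every purified library. Trimmed forms of miR-130b-3p made up 42.3 ± 1.31% at 0 h against 17.4% in total 4SU RNA (16.6 to 18.3), rank 3 of 156, while the median share over the 156 was 9.84% in purified RNA at 0 h and 9.31% in total 4SU RNA. Forms with a non-templated addition were a smaller share in the purified RNA. They made up 5.06 ± 2.65% of miR-130a-3p at 0 h against 25.9% in total 4SU RNA, and 41.1 ± 2.65% of miR-130b-3p at 0 h against 60.2% in total 4SU RNA, ranks 156 and 154 from the top. Canonical forms made up 7.91 ± 3.41% of miR-130a-3p at 0 h against 28.0% in total 4SU RNA (rank 154), and 16.0 ± 2.91% of miR-130b-3p at 0 h against 21.9% in total 4SU RNA (rank 126). For additions miR-301a-3p went the other way, with 17.5 ± 3.44% at 0 h against 9.97% in total 4SU RNA, rank 7. In CPM at 0 h, trimmed miR-130a-3p averaged 904 ± 126, against 1159 in total 4SU RNA. Trimmed miR-130b-3p averaged 206 ± 23.4 CPM, against 282. Trimmed forms were thus a larger share, but not more abundant, in purified RNA at 0 h. Canonical miR-130a-3p averaged 80.4 ± 31.5 CPM against 709, and its forms with an addition 51.7 ± 26.3 against 655. For miR-130b-3p these were 77.8 ± 17 against 355 and 201 ± 36.6 against 976.

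The negative extraction was close to the purified libraries in the trimmed share. Of its 301 counts of miR-130a-3p 88.4% were trimmed (Wilson interval 84.3 to 91.5), and of its 330 counts of miR-130b-3p 37.3% (32.2 to 42.6). In total unlabelled RNA the shares were 50.1 and 18.2%. For both miRNAs the trimmed share of the negative extraction lay within the range of the purified libraries. Total 4SU RNA, at 45.9 and 17.4%, was nearer to total unlabelled RNA than to the purified libraries. Its Wilson interval for miR-130a-3p did not reach the 50.1% of unlabelled RNA. The difference in composition between purified and total RNA cannot be told apart from the purification itself or from the code in the header that separates these libraries.

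**Figure D4:**
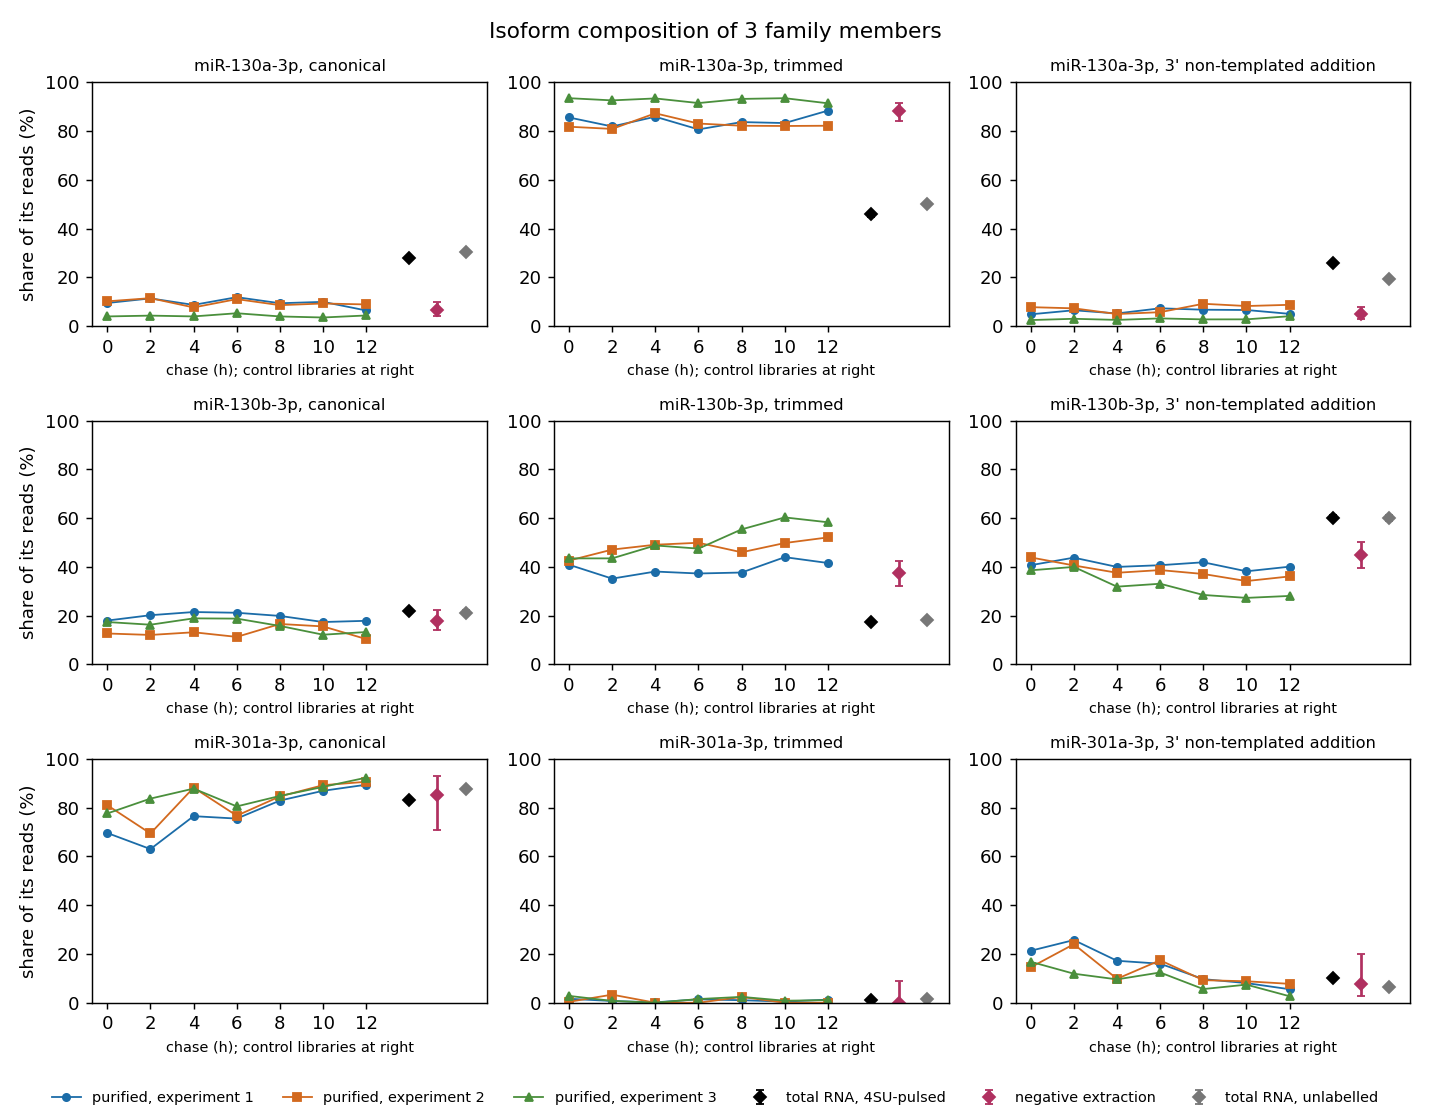
Share of the counts of miR-130a-3p, miR-130b-3p and miR-301a-3p (rows, y axis 0 to 100%) that are canonical, trimmed or carry a 3′ non-templated addition (columns), against hours of chase for each experiment, with the control libraries at the right and their 95% Wilson intervals. For miR-130a-3p trimmed forms reach 80.7 to 93.5% in purified RNA and 45.9% in total 4SU RNA, and for miR-301a-3p the non-templated share averages 5.30% at 12 h and 17.5% at 0 h.

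Isoform shares were also followed over the chase. The slope of each share, in percentage points per hour, was fitted within experiments for 552 pairs of a miRNA and a class, and pairs were called two-sided by permuting hours within experiments (100000 resamples, adjusted p of 0.05). Of all pairs 31.2% were called, and of the 10 that belong to members 4 were. Because the members were chosen with their change over the same hours known, their slopes are given as a description and nothing is read from this count.

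In miR-301a-3p the share with a non-templated addition had a slope of -1.17 points per hour, with -1.61, -0.914 and -0.989 in experiments 1 to 3. It was 5.52, 7.74 and 2.64% at 12 h and 21.3, 14.5 and 16.8% at 0 h. The canonical share had a slope of 1.36 points per hour, with 89.4, 90.6 and 92.3% at 12 h and 69.6, 81.0 and 77.6% at 0 h. Most of the additions were in the mixed class, with added A and added U alone at no more than 0.935 and 2.96% of the counts in any purified library. In CPM, canonical miR-301a-3p averaged 193 ± 54.9 at 12 h and 48.6 ± 27.8 at 0 h, while forms with an addition averaged 12.3 ± 8.63 at 12 h and 11.3 ± 6.68 at 0 h (SD, n = 3 each). Among templated counts alone the slope of the canonical share was 0.326. The share with an addition was 5.30 ± 2.56% at 12 h, 9.97% in total 4SU RNA (Wilson interval 9.48 to 10.5) and 6.57% in total unlabelled RNA (6.12 to 7.05).

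In miR-130b-3p the share with a non-templated addition had a slope of -0.643 points per hour. It was 40.1, 36.1 and 28.1% at 12 h, against 40.7, 43.9 and 38.6% at 0 h, in experiments 1 to 3, and the groups overlapped. The trimmed share had a slope of 0.802, with 41.6, 52.1 and 58.3% at 12 h and 40.9, 42.6 and 43.5% at 0 h, and overlapped too. Its slope was 0.344, 0.552 and 1.51 in experiments 1 to 3, lowest in experiment 1, 0.448 without experiment 3 and 0.486 among templated counts alone. Added A made up 16.4 to 26.6% of miR-130b-3p and added U 9.84 to 21.5% over the 21 purified libraries.

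As background to these slopes, 4.35% of the 138 miRNAs eligible for non-templated additions were called falling and 25.4% rising. Trimmed forms were called rising in 23.2%, canonical forms rising in 11.4% and falling in 24.2%, and templated 3′ extensions rising in 4.9% and falling in 19.6%. In miR-130a-3p the shares at 12 h and 0 h lay within the spread between experiments. Its trimmed share was 87.3 ± 4.73% at 12 h and 86.9 ± 5.95% at 0 h, and its share with an addition 5.97 ± 2.47% at 12 h and 5.06 ± 2.65% at 0 h (SD, n = 3 each). miR-301b-3p and miR-130a-5p had fewer than 50 counts in some library and were not fitted. Over the 21 purified libraries the canonical share of miR-301b-3p was 51.5 to 93.3%.

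Similarity over the 21 purified libraries was measured by Pearson's r of log2 CPM (TMM), with no p, since libraries of 1 experiment share a code and times are shared. The members most alike were miR-130b-3p and miR-301a-3p (r = 0.85) and miR-301a-3p and miR-301b-3p (r = 0.819), whereas miR-130b-3p and its neighbour miR-301b-3p had 0.591. miR-130a-3p and miR-130b-3p had 0.693. miR-130a-5p had -0.418 to -0.059 with the other members. Among all tested miRNAs, the nearest to miR-301a-3p were miR-421-3p (0.943), miR-186-5p (0.907) and miR-30e-5p (0.90), and the nearest to miR-130b-3p were miR-421-3p (0.92), miR-186-5p (0.865) and miR-29a-3p (0.851). miR-130a-3p was nearest to miR-148b-3p (0.864), miR-186-5p (0.824) and miR-365-3p (0.779). For miR-301b-3p they were miR-6948-3p (0.889), miR-30e-5p (0.86) and miR-301a-3p, and for miR-130a-5p let-7a-1-3p (0.826), miR-466a-3p (0.814) and miR-669b-5p (0.808).

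Other miRNA families have a seed that overlaps AGUGCAA when moved by a base, and 2 of their members are shown for comparison, from RefSeq with bases 2 to 8 in capitals.
miR-19b-3p: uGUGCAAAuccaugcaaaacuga
miR-148b-3p: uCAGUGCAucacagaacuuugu
Counts of miR-19b-3p can come from Mir19b-1 on chr14 or Mir19b-2 on chrX, while miR-19a-3p comes from a cluster known to promote growth. miR-19a-3p and miR-19b-3p had slopes of 0.16 and 0.12 log2 per hour (edgeR adjusted p = 0.0337 and 0.00275) and ranked 3 and 5 of 414. At 0 h they stood at -5.72 and -4.85 (log2 of CPM + 1) relative to total 4SU RNA, against -5.76 for miR-301a-3p. miR-19a-3p had only 29, 12 and 9 counts at 0 h in experiments 1 to 3, and 0 at 4 h in experiment 2. Its ratio is thus imprecise and depends on the pseudocount. Of the 3 members of the miR-148/152 family, miR-148b-3p rose, with a slope of 0.062 (edgeR adjusted p = 0.00026). miR-148a-3p and miR-152-3p had slopes of -0.019 and -0.037, which did not pass (edgeR adjusted p = 0.541 and 0.282). With the experiment as a block miR-152-3p did (edgeR adjusted p = 0.000961). The names with a shifted seed were listed with earlier results of these data known, so nothing is read from these adjusted p.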

How the data were processed

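The authors deposited 1 table of raw read counts, whole numbers per isoform entry of each mature miRNA, for 24 small RNA libraries. Base calling used CASAVA 1.8.0, per the submitters' processing notes, with aligner and miRNA annotation not given in the sources used here. Of 7129 entries 1 duplicate was removed, and 8 of 20 classes were summed per miRNA, because the others repeat them (25728 of 25728 cells tested were equal). CPM use library totals. Slopes and experiment differences were fitted with edgeR 4.0.16 (R 4.3.3; quasi-likelihood, TMM, filterByExpr by chase time, Benjamini-Hochberg over 414 miRNAs, threshold 0.05). Isoform shares were tested by permutation (NumPy 2.4.6; at least 50 counts in each purified library, mean share of at least 1%; smallest p 1e-05). Control libraries were compared with a pseudocount of 1 CPM. Intervals and the limit of 3 counts for a count of 0 cover counting error only. The scripts were tested on simulated data.

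Members and lists were chosen with earlier results of these data known. Named beyond the members are the other arms, 5 miRNAs with a shifted seed and the 3 miRNAs most correlated with each member. Experiment numbers pair the libraries: deviations from time means correlated at 0.311 to 0.738 in 63 pairs within an experiment and at most 0.227 in 126 pairs between experiments. Alternatives covered scaling, filters, DESeq2 1.42.0, limma-voom 3.58.1, the block, left-out libraries, times and experiments, and pseudocounts.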

Additional observations from a re-analysis of the deposited data

How the results depend on the processing

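Over all tested miRNAs, 51 had a chase slope past the threshold (21 rising), and 132 (63 rising) with the experiment as a replicate block. Without 0 h the number was 14 and without 12 h it was 21. Leaving out 1 library gave 29 to 54, with 29 and 33 without the 0 h libraries of experiments 1 and 3. Leaving out experiment 1, 2 or 3 gave 20, 79 and 15, and 84, 148 and 83 with the replicate block, an alternative added after the data were seen. Rising calls were 10 of 57 with library totals and 39 of 63 with upper-quartile scaling. The cause was not tested. The number called different between experiments stayed within 1.5 times of 286 in all alternatives, from 264 to 299. Isoform pairs called were 172, and 75 with no replicate block. They were 110 without experiment 1 and 155 to 178 without single libraries. The uncalled trimmed share of miR-130a-3p had a slope of 0.0168, and changed sign without experiment 1 (-0.0545) and without single libraries (-0.0796 to 0.051). With at least 200 counts miR-301a-3p was not eligible. With a pseudocount of 5 CPM, 102 miRNAs were past 2-fold at 12 h and 116 at 0 h against the negative extraction (181 and 190 with 1 CPM), and 37 in total 4SU over total unlabelled RNA (65 with 1 CPM). For miR-130a-5p, ratios to the negative extraction, where it had 0 counts, moved with the pseudocount and are not given. Depth limits miR-130a-5p, miR-301b-3p, miR-19a-3p and every value of the negative extraction.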
